A study of Mus musculus with 15 samples.

Results

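Genes for the contents of cytotoxic granules and for Fas ligand were examined in regulatory T cells (Treg) sorted from mouse spleen, with the Notch pathway activated, deprived of RBPJ, or both. The 8 members, Gzma, Gzmb, Gzmk, Prf1, Nkg7, Ctsw, Fasl and Srgn, were chosen by name with earlier results of these data known. Each was read from a transcript cluster annotated to that gene alone. All 8 were measured, among 19752 genes in all, with no filter on dim genes.

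RNA of sorted spleen cells was hybridised to 15 Affymetrix Mouse Gene 1.0 ST arrays, which read a transcript through probes spread over its exons. The mice were males of 6 weeks, and cells were taken as CD3, TCRbeta, CD4 and GFP (Foxp3) positive and as negative for CD8, B220, CD11b, CD11c, Gr1 and the dead-cell dye DAPI. Mice of every group carried Foxp3EGFPCre, in which the Foxp3 locus drives Cre, so the other alleles were changed in cells that had expressed Foxp3. The N1c_RBPJdel group (3 arrays) carried R26N1c/N1c and RBPJ∆/∆ together. The N1c group (4 arrays) carried R26N1c/N1c, an allele at the Rosa26 locus that expresses the active intracellular fragment of Notch1 once Cre has acted. The RBPJdel group (4 arrays) carried RBPJ∆/∆, the deletion of the DNA-binding partner of that fragment. The control group (4 arrays) carried Foxp3EGFPCre alone. Each array held cells pooled from several mice, and the replicates are therefore pools. The instrument was a FACSAria for N1c_RBPJdel and a MoFlo for the other 3 groups, so in every comparison of N1c_RBPJdel genotype and sorter cannot be told apart.

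Cytotoxic granules are secretory lysosomes that hold perforin, which opens the membrane of a target cell, and granzymes, the serine proteases that enter through it and start cell death. Serglycin is the proteoglycan that binds granzymes inside the granule. Fas ligand works apart from the granules, by engaging the death receptor Fas on the target. Treg can use granzyme B and perforin to kill conventional T cells and other targets. Notch fragments act on transcription mainly through RBPJ.

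The N1c cells held more RNA for Gzmb, Fasl, Nkg7, Gzma and Prf1 than control cells and less for Ctsw. Gzmb was 3.8-fold higher, Fasl 2.86-fold higher and Ctsw 2.34-fold lower. In N1c_RBPJdel cells Gzmb, Fasl and Prf1 were lower than in N1c cells and Ctsw was higher, while Nkg7 and Gzmk were higher than in control cells. No member passed the test in RBPJdel cells against control. Serglycin RNA passed in none of the comparisons.

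Levels are RMA intensities on a linear scale, group levels are geometric means, and changes are differences between mean log2 values of the groups, with their standard error (SE) from limma. A gene was called when its Benjamini-Hochberg adjusted p over the 19752 genes was below 0.05. In N1c against control 5 of the 8 members were called higher, where 0.937% of all genes were, and 1 was called lower, where 0.714% were. The median change over the members was 0.81 in that comparison, beside -0.01 over all genes. Since the members were chosen with earlier results of these data known, such shares describe the list and are no test of it. In RBPJdel against control 0 of 8 were called, with 0.0354% of genes called higher and 0.0759% lower. In N1c_RBPJdel against N1c 1 member was called higher (4.58% of genes) and 3 lower (4.65%). Against RBPJdel 0 were called (1.32% higher and 0.967% lower over all genes), and against control 2 were called higher (3.77%) and 0 lower (5.12%). In the interaction, the difference of N1c_RBPJdel from RBPJdel minus that of N1c from control, 1 member was called higher (0.319%) and 1 lower (0.521%). The comparisons with control share the same control arrays and those with N1c the same N1c arrays.

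**Figure D1:**
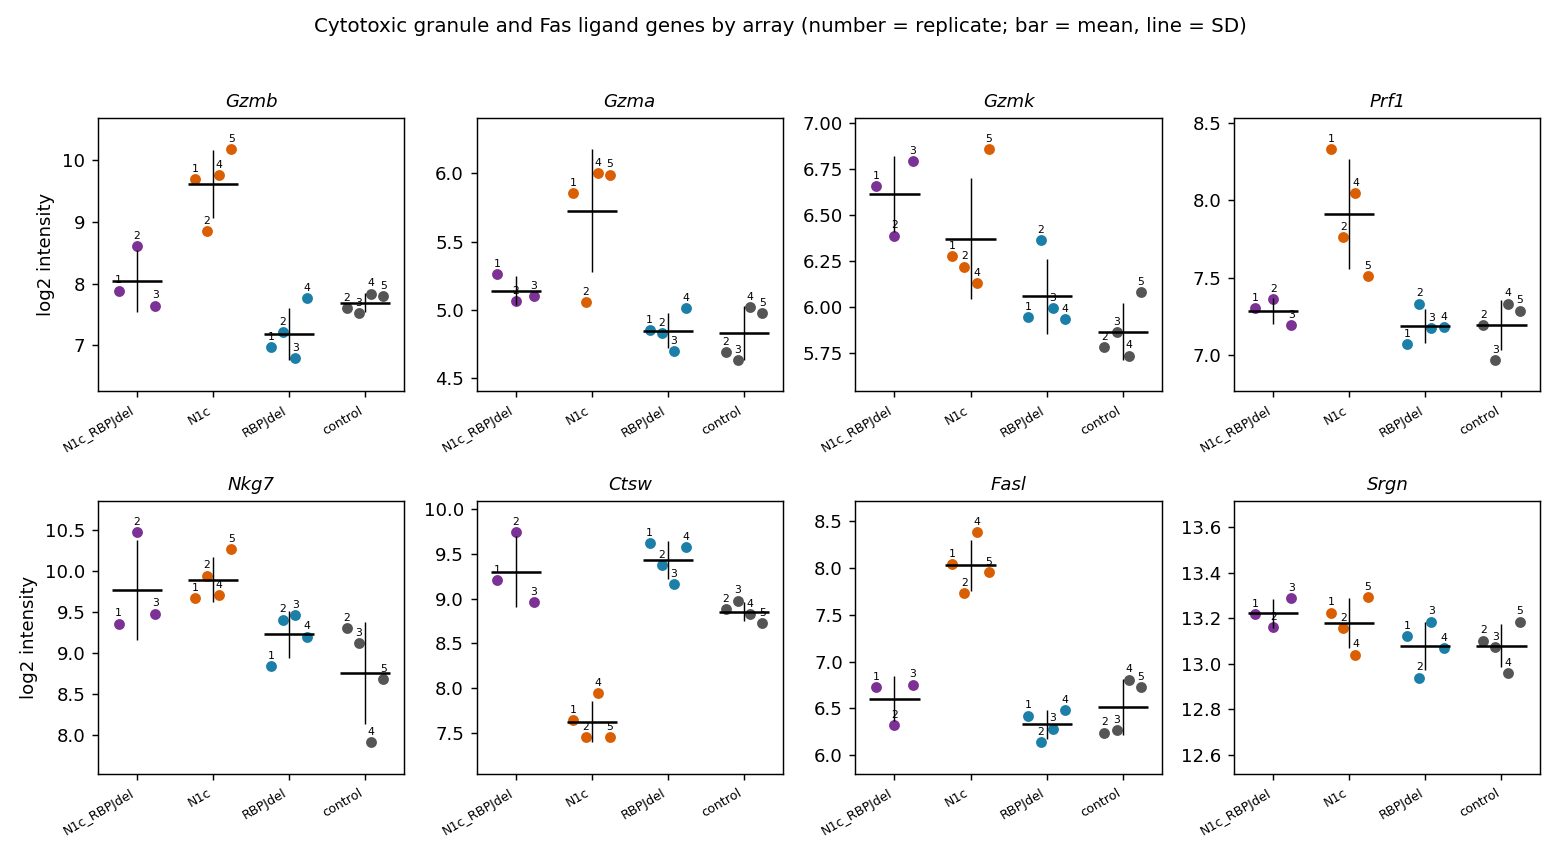
Each panel gives 1 gene, with the log2 intensity of every array on the vertical axis and the 4 groups on the horizontal axis. Points are arrays numbered by replicate, the horizontal bar is the group mean and the vertical line the SD. Fasl, Gzmb and Prf1 of all 4 N1c arrays lay above the arrays of the other groups, and Ctsw of all 4 lay below them.

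The deletion was visible in the Rbpj signal itself. Rbpj had a geometric mean of 209 in N1c_RBPJdel cells, 521 in N1c cells, 267 in RBPJdel cells and 497 in control cells. It fell by 1.32 in N1c_RBPJdel against N1c (adjusted p = 7.76e-06, limma) and by 0.90 in RBPJdel against control (adjusted p = 0.00213). With the mean of all Rbpj features the change was -0.54 in N1c_RBPJdel against N1c, still called, and -0.41 in RBPJdel against control, not called (adjusted p = 0.32). Notch1 and Foxp3 were called in none of the 6 comparisons. The 6 markers that define Treg, Foxp3, Il2ra, Ctla4, Ikzf2, Cd4 and Cd3e, had mean intensities at percentiles 97.6 to 99.8 of all genes.

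The 250 bases before the transcription start of Gzmb, Fasl and Prf1 are shown because these 3 members were called higher in N1c against control and lower in N1c_RBPJdel against N1c. They are RefSeq sequences of build GRCm38.p6, written 5′ to 3′ on the strand of the gene. Capitals mark matches on either strand to 4 motifs, the RBPJ core TGGGAA, the Runx core TGNGGT, the AP-1 site TGANTCA and the T-box half-site GGTGTGA. N stands for any base, so the Runx core was searched in a loose form. Gzmb lies on the minus strand (chr14:56262335-56262584), Fasl on the minus strand (chr1:161788496-161788745) and Prf1 on the plus strand (chr10:61297586-61297835).
Gzmb: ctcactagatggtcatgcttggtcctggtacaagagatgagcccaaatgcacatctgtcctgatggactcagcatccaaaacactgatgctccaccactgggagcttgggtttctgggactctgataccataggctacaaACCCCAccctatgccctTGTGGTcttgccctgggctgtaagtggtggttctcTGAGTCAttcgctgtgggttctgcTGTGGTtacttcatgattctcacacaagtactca
Fasl: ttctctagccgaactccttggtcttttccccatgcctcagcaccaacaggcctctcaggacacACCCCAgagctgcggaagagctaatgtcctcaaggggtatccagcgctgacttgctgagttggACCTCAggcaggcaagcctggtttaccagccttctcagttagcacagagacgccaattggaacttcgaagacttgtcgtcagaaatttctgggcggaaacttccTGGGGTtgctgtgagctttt
Prf1: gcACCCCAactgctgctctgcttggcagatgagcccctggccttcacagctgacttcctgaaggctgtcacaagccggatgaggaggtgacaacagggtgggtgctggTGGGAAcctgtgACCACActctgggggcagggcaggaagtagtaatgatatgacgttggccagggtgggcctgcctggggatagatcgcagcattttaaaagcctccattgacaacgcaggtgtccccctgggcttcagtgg

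RefSeq upstream sequences were found for 7 of the 8 members, with 2 for Srgn, and Ctsw was not matched. The Runx core was present upstream of all 7, though for Srgn in only 1 of its 2 sequences. There were 3 matches for Gzmb, 3 for Fasl and 2 for Prf1. The core is common, since 40.1% of 32851 mouse promoters of this length hold it. The AP-1 site upstream of Gzmb lay at -58 to -52 from the start, and 6.75% of promoters hold 1. The RBPJ core was found only upstream of Prf1, at -142 to -137, among the 7 members with a sequence. It is present in 21.6% of promoters. The T-box half-site was found upstream of Gzmk and Nkg7 and in 3.33% of promoters. No matches to different motifs overlapped in the 3 printed sequences. A match describes letters in this window and says nothing of binding.

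**Figure D2:**
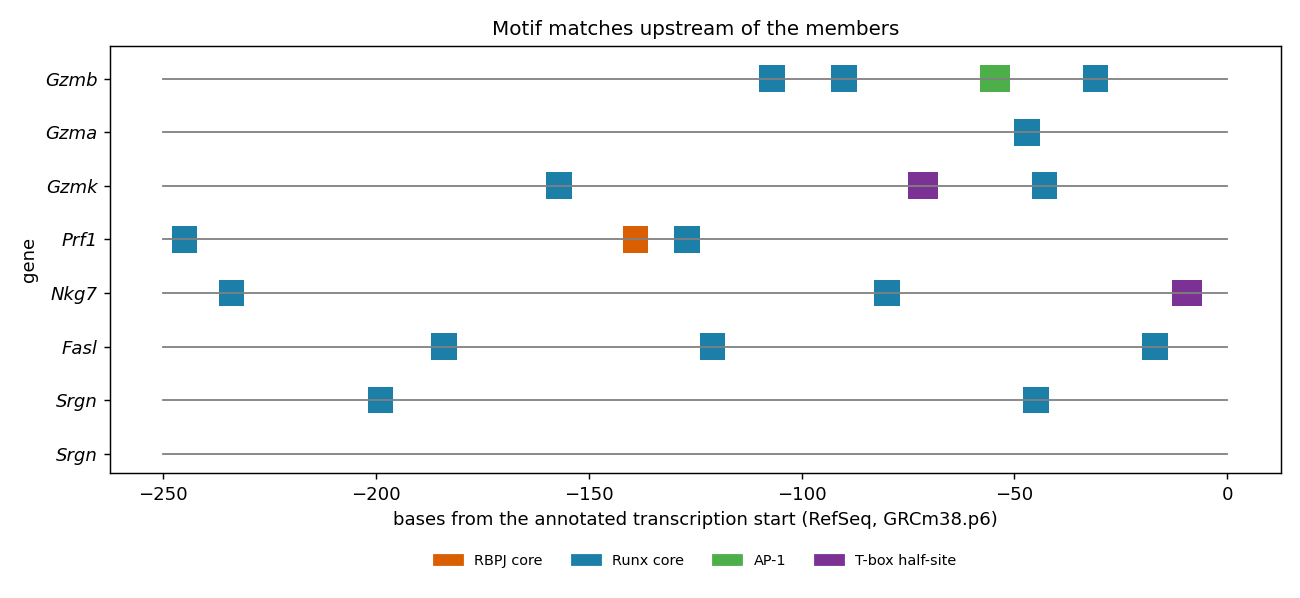
Each grey line is the 250 bases before an annotated start, with the position relative to the start on the horizontal axis and the members on the vertical axis, Srgn with 2 starts. Boxes are motif matches on either strand, coloured by motif. Matches to the loose Runx core TGNGGT lie upstream of all 7 genes drawn, for Srgn before a single start of the 2. The single RBPJ core match lies upstream of Prf1.

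Gzmb encodes granzyme B, the protease that cleaves caspases and Bid in the target cell (transcript cluster 10420308, chromosome 14). Its intensities were 237, 391 and 200 in N1c_RBPJdel arrays 1, 2 and 3, and 825, 460, 866 and 1154.2 in N1c arrays 1, 2, 4 and 5. They were 126, 149, 111 and 217 in RBPJdel arrays 1 to 4 and 194, 184, 229 and 223 in control arrays 2 to 5. Every N1c array was above every array of the other groups, and N1c array 2 was the lowest of its group. The geometric means were 264 in N1c_RBPJdel, 785 in N1c, 146 in RBPJdel and 206 in control cells. Gzmb rose by 1.93 ± 0.25 (SE) in N1c against control (adjusted p = 0.000227, limma), and it was called in all 26 alternative settings. In N1c_RBPJdel against N1c it fell by 1.57 ± 0.27, to 2.97-fold lower (adjusted p = 0.00206). That call was lost when only these groups were fitted with the replicate number as a block, where the change was -1.02 (adjusted p = 0.127), and the numbers do not pair these groups. The N1c_RBPJdel arrays overlapped both RBPJdel and control. The change was 0.86 against RBPJdel (95% interval 0.28 to 1.43, adjusted p = 0.0955) and 0.36 against control (-0.22 to 0.93, adjusted p = 0.427). The order of the group levels was N1c, N1c_RBPJdel, control and RBPJdel. Neither N1c_RBPJdel and control nor control and RBPJdel differed at the threshold.

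Granzyme A, encoded by Gzma, is a tryptase-like granzyme (transcript cluster 10412211, chromosome 13). Gzma intensities were 38.3, 33.4 and 34.3 in N1c_RBPJdel arrays 1, 2 and 3 and 57.8, 33.3, 64 and 63.6 in N1c arrays 1, 2, 4 and 5. They were 28.8, 28.4, 25.9 and 32.2 in RBPJdel arrays 1 to 4 and 25.8, 24.8, 32.4 and 31.5 in control arrays 2 to 5. All of these values lay below the median intensity of every array, which was 107.1 to 117.2, so Gzma was read near the dim end of the scale. In N1c cells 3 arrays stood well above the rest and array 2 lay just above the highest control array. Gzma rose by 0.90 ± 0.17 in N1c against control, 1.86-fold (adjusted p = 0.00645, limma), and the call was lost when these groups were fitted alone (adjusted p = 0.058). The difference of N1c_RBPJdel from N1c was -0.58 (95% interval -0.97 to -0.20), which just missed the threshold (adjusted p = 0.0512). This difference was called in 4 of 25 alternatives. The largest fall was -0.81 without N1c array 2 (adjusted p = 0.00116). The smallest was -0.30, with the replicate block in these groups alone (adjusted p = 0.506).

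Gzmk encodes granzyme K, another tryptase-like granzyme (transcript cluster 10412218, chromosome 13). Its intensities were 101, 83.8 and 111 in N1c_RBPJdel arrays 1, 2 and 3, 77.6, 74.6, 70.1 and 116 in N1c arrays 1, 2, 4 and 5, 61.6, 82.3, 63.7 and 61.1 in RBPJdel arrays 1 to 4, and 55.1, 58.3, 53.3 and 67.8 in control arrays 2 to 5. Unlike Gzma and Gzmb it had its highest group mean in N1c_RBPJdel cells (97.7), against 82.8 in N1c, 66.6 in RBPJdel and 58.4 in control cells. Against control, Gzmk rose by 0.74 ± 0.16 in N1c_RBPJdel cells, 1.67-fold (adjusted p = 0.012, limma). Without N1c_RBPJdel array 1 the change was 0.72 and the call was lost (adjusted p = 0.0519). The difference between N1c and control was 0.51 (95% interval 0.19 to 0.82, adjusted p = 0.137), with no overlap between the arrays. The replicate numbers pair the N1c and control arrays, and with the number as a block over all arrays this difference was called (0.53, adjusted p = 0.0293), as it was in the paired fit of these groups alone (0.54, adjusted p = 0.0438). Granzyme genes resemble each other, and how far their probes share signal was not tested.

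Prf1 encodes perforin, the pore former through which granzymes reach their substrates (transcript cluster 10363475, chromosome 10). Its intensities were 158, 164 and 146 in N1c_RBPJdel arrays 1, 2 and 3 and 322, 217, 265 and 182 in N1c arrays 1, 2, 4 and 5. They were 134, 161, 144 and 145 in RBPJdel arrays 1 to 4 and 146, 125, 161 and 156 in control arrays 2 to 5. The lowest N1c array was above the highest array of any other group, and the other 3 groups overlapped. Prf1 rose by 0.72 ± 0.14 in N1c against control, 1.64-fold (adjusted p = 0.0096, limma). It fell by 0.63 ± 0.15 in N1c_RBPJdel against N1c, to 1.55-fold lower (adjusted p = 0.0163). The rise was lost when N1c and control were fitted alone (adjusted p = 0.0675) and in the paired fit of these groups alone (0.50, adjusted p = 0.0713), but not with the block over all arrays. The fall was lost when N1c_RBPJdel and N1c were fitted alone (-0.63, adjusted p = 0.0879), with the replicate block in these groups (-0.71, adjusted p = 0.122) and without N1c_RBPJdel array 3 (-0.58, adjusted p = 0.0524).

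Fasl encodes Fas ligand (transcript cluster 10359434, chromosome 1). Its intensities were 106, 80.1 and 108 in N1c_RBPJdel arrays 1, 2 and 3 and 264, 212, 334 and 248 in N1c arrays 1, 2, 4 and 5. They were 85.8, 70.4, 78 and 89.3 in RBPJdel arrays 1 to 4 and 75.7, 76.9, 112 and 106 in control arrays 2 to 5. The N1c arrays stood apart from all others, while the remaining 3 groups overlapped. Fasl rose by 1.52 ± 0.16 in N1c against control (adjusted p = 1.38e-05, limma) and fell by 1.43 ± 0.17 in N1c_RBPJdel against N1c (adjusted p = 5.04e-05), each in all 26 alternative settings. Against control the N1c_RBPJdel difference was 0.09 (95% interval -0.26 to 0.45, adjusted p = 0.764). The interaction was -1.25 ± 0.23 (adjusted p = 0.0122), so the N1c change was smaller in cells that also lacked RBPJ. It was called under every alternative that kept at least 2 N1c_RBPJdel arrays.

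Ctsw encodes cathepsin W, a papain-like cysteine protease of NK and CD8 T cells (transcript cluster 10465059, chromosome 19). Its intensities were 589, 856 and 498 in N1c_RBPJdel arrays 1, 2 and 3 and 200, 176, 247 and 176 in N1c arrays 1, 2, 4 and 5. They were 788, 665, 571 and 763 in RBPJdel arrays 1 to 4 and 471, 504, 454 and 424 in control arrays 2 to 5. It was the member that ran the other way, with all N1c arrays below every other array. Ctsw fell by 1.22 ± 0.15 in N1c against control (adjusted p = 0.000139, limma) and rose by 1.67 ± 0.17 in N1c_RBPJdel against N1c, 3.19-fold (adjusted p = 6.84e-06), each in all 26 alternative settings. All RBPJdel arrays were above all control arrays, but the difference of 0.58 ± 0.15 was not called (95% interval 0.26 to 0.90, adjusted p = 0.32). It was called with array weights (0.51, adjusted p = 0.042). The interaction was 1.09 ± 0.23 (adjusted p = 0.0285). That call was lost without N1c array 1 or 2, without RBPJdel array 2 or 3 and without control array 2, 3 or 4, with changes of 1.00 to 1.10 and adjusted p of 0.053 to 0.0706.

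Nkg7 encodes a granule membrane protein that takes part in granule release (transcript cluster 10552406, chromosome 7). Its intensities were 657, 1421.0 and 714 in N1c_RBPJdel arrays 1, 2 and 3 and 812, 984, 835 and 1228.0 in N1c arrays 1, 2, 4 and 5. They were 458, 679, 704 and 588 in RBPJdel arrays 1 to 4 and 634, 557, 241 and 410 in control arrays 2 to 5. Control array 4 was the lowest and N1c_RBPJdel array 2 the highest of the 15 arrays. Nkg7 rose by 1.14 ± 0.27 in N1c against control, 2.2-fold (adjusted p = 0.0407, limma), and by 1.02 ± 0.29 in N1c_RBPJdel against control, 2.02-fold (adjusted p = 0.0401). These calls were the least stable of the members, the first kept in 15 and the second in 16 of 26 alternatives. The first was lost without any 1 of the N1c arrays, without RBPJdel array 2 or 3, and without control array 4 or 5, and it was 0.86 without control array 4 (adjusted p = 0.141). The second was 0.66 without N1c_RBPJdel array 2 (adjusted p = 0.129) and 0.73 without control array 4 (adjusted p = 0.104). It was also lost without N1c_RBPJdel array 1, RBPJdel array 2, or control array 3 or 5. In contrast to Gzmb, Fasl and Prf1, the N1c_RBPJdel and N1c arrays of Nkg7 overlapped, with a difference of -0.12 (95% interval -0.74 to 0.50, adjusted p = 0.831).

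Srgn encodes serglycin (transcript cluster 10369615, chromosome 10). Its intensities were 9524.3, 9158.3 and 10001.5 in N1c_RBPJdel arrays 1, 2 and 3 and 9574.0, 9139.1, 8424.2 and 10047.0 in N1c arrays 1, 2, 4 and 5. They were 8910.9, 7854.5, 9318.7 and 8588.6 in RBPJdel arrays 1 to 4 and 8790.0, 8629.8, 7962.5 and 9315.7 in control arrays 2 to 5. The 4 groups overlapped. The difference between N1c and control was 0.10 (95% interval -0.09 to 0.29, adjusted p = 0.999, limma).

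**Figure D3:**
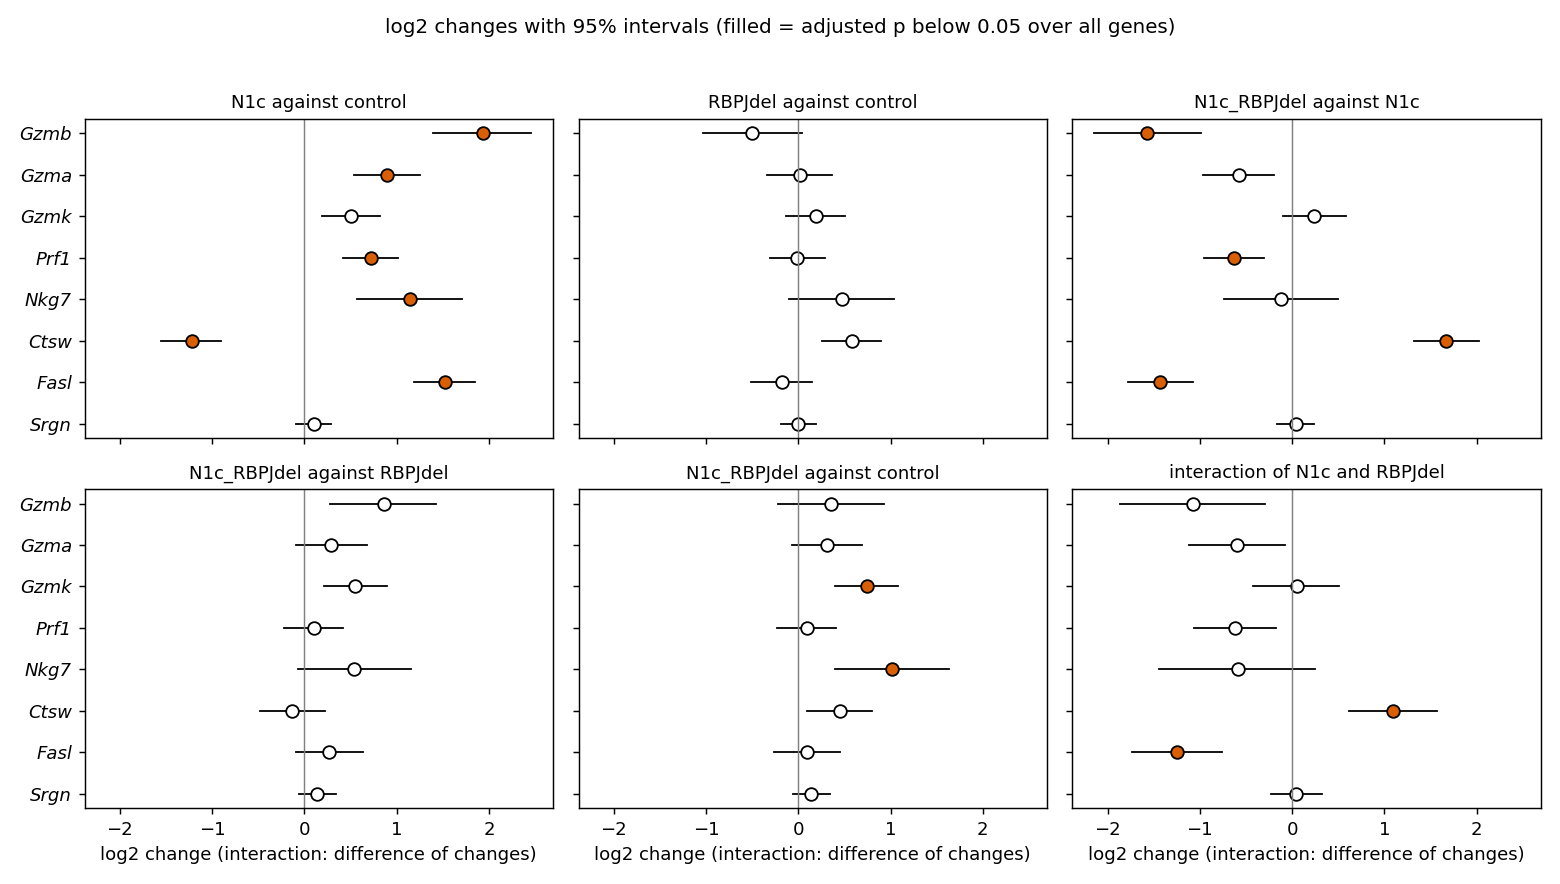
Each panel is 1 comparison, with the log2 change (for the interaction, the difference of changes) on the horizontal axis and the 8 members on the vertical axis. Points are limma estimates, lines are 95% intervals, and filled points have an adjusted p below 0.05 over all genes. Gzmb, Fasl and Prf1 lie to the right of 0 in N1c against control and to the left in N1c_RBPJdel against N1c, and Ctsw is on the opposite side in both.

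In RBPJdel cells against control the changes of the members ran from -0.50 for Gzmb to 0.58 for Ctsw, with a median of 0.01 beside 0.03 over all genes. The test called 22 genes in all in this comparison and 1331 had an unadjusted p below 0.05. Of the members, Ctsw had an unadjusted p of 0.00146 and no other member was below 0.05, the nearest being Gzmb (95% interval -1.03 to 0.04, unadjusted p = 0.066). In N1c_RBPJdel against RBPJdel 452 genes were called and 4195 had an unadjusted p below 0.05. Gzmb and Gzmk were the members below that unadjusted level. The Gzmk difference was 0.55 (95% interval 0.21 to 0.89, adjusted p = 0.0758). It was called in 6 of 25 alternatives, and the Gzmb difference in 2 of 26. For the interaction, Gzmb gave -1.07 ± 0.37 (adjusted p = 0.218) and Prf1 -0.62 ± 0.21 (adjusted p = 0.193), so for these a difference between the N1c changes with and without RBPJ did not pass the test.

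The arrays of a group did not carry all 8 members up and down together. N1c_RBPJdel array 2 had the highest Gzmb, Prf1, Nkg7 and Ctsw of its group and the lowest Gzma, Gzmk, Fasl and Srgn. N1c array 2 had the lowest Gzma, Gzmb and Fasl of its group, and N1c array 5 the highest Gzmb, Gzmk, Nkg7 and Srgn. Control array 4 was highest of its group for Gzma, Gzmb, Prf1 and Fasl and lowest for Gzmk, Nkg7 and Srgn. RBPJdel array 4 was highest for Gzma, Gzmb and Fasl and lowest for Gzmk. Gzma, Gzmb and Fasl thus shared the lowest array in N1c and the highest array in RBPJdel and control. At the opposite end Gzmb differed from Gzma and Fasl in N1c, and Fasl from Gzma and Gzmb in RBPJdel and control. In N1c_RBPJdel these genes shared neither end.

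Other genes of granule biology were described from lists chosen with earlier results of these data known. None of the 7 other granzymes measured (Gzmc, Gzmd, Gzme, Gzmf, Gzmg, Gzmm and Gzmn) was called in N1c against control, with a median change of -0.04. In N1c_RBPJdel against N1c 1 of 7 was called higher, Gzmc. Its geometric means were 61.4 in N1c_RBPJdel, 41.6 in N1c, 46.5 in RBPJdel and 46.4 in control cells, a change of 0.56 ± 0.16 (adjusted p = 0.0384) that held in 11 of 25 alternatives. The call was lost without N1c_RBPJdel array 2 or 3, N1c array 1, 2 or 4, RBPJdel array 1, 2 or 3, or control array 2. Quantile normalization (0.45, adjusted p = 0.107, limma) and cyclic loess (0.46, adjusted p = 0.103) also ended it. So did array weights and the fits of these groups alone, with and without the replicate block.

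Among 9 genes that process granule proteases or restrain them, 2 rose and 0 fell in N1c against control. Cst7, which encodes cystatin F, an inhibitor of the cathepsins that activate granzymes, had intensities of 1075.3, 1410.3 and 1219.7 in N1c_RBPJdel arrays and 3773.5, 3756.0, 3712.6 and 3199.2 in N1c arrays. It had 628, 588, 764 and 924 in RBPJdel arrays and 1184.8, 1153.1, 778 and 780 in control arrays. The N1c arrays were far above all others. Cst7 rose by 1.92 ± 0.16 in N1c against control (adjusted p = 9.85e-07, limma) and fell by 1.55 ± 0.17 in N1c_RBPJdel against N1c (adjusted p = 2.62e-05), each in all 26 alternatives. It was also higher in N1c_RBPJdel than in RBPJdel cells, by 0.78 ± 0.17 (adjusted p = 0.0294, called in 18 of 26 alternatives and lost without N1c_RBPJdel array 1 or 3 and without RBPJdel array 1, 2 or 3). Its interaction was -1.14 ± 0.24 (adjusted p = 0.0291, called in 15 of 24 and lost without N1c_RBPJdel array 1 or 3, N1c array 1, 2 or 4, RBPJdel array 3, or control array 4 or 5). Serpinb6b, a serpin of the clade that inhibits granule proteases, rose by 0.64 ± 0.13 in N1c against control (741 against 475, adjusted p = 0.0162) and fell by 0.95 ± 0.15 in N1c_RBPJdel against N1c (384 against 741, adjusted p = 0.000657). The rise was lost without N1c array 1 or 5 and without control array 2 or 4, with adjusted p of 0.0538 to 0.0712. Ctsc, the cathepsin that activates granzymes, and Serpinb9, a granzyme B inhibitor, were called in none of the comparisons.

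Of 17 genes of granule transport and release, 0 rose and 1 fell in N1c against control. Sytl2, which encodes a synaptotagmin-like protein that links Rab27a on granules to the plasma membrane, fell by 1.31 ± 0.14 (185 in N1c against 460 in control, adjusted p = 1.92e-05). It rose by 0.94 ± 0.15 in N1c_RBPJdel against N1c (354 against 185, adjusted p = 0.00107), and its interaction was 1.33 ± 0.21 (adjusted p = 0.0033). The fall and the interaction were each called in all alternatives run for them. Stx11, a fusion protein of granule release, rose in N1c_RBPJdel against N1c (0.39, adjusted p = 0.0314, 17 of 26 alternatives) and Lyst, a lysosome trafficking regulator, fell (-0.54, adjusted p = 0.00486). The Stx11 call was lost without N1c_RBPJdel array 1 or 2 and without N1c array 2 or 4. Against control, N1c_RBPJdel cells had lower Igf2r, a receptor that sorts granzymes to lysosomes (-0.65, adjusted p = 0.0116), and lower Lyst (-0.42, adjusted p = 0.0227, 18 of 26 alternatives). That Lyst call was lost without N1c_RBPJdel array 1 and without control array 3 or 4. It was also lost with quantile normalization (-0.31, adjusted p = 0.084, limma) and cyclic loess (-0.29, adjusted p = 0.0961). The fits of these groups alone, with and without the replicate block, ended it too.

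In the death receptor pathway 0 of 11 measured genes rose and 1 fell in N1c against control. Tnfsf10, which encodes the ligand TRAIL, fell by 0.68 ± 0.14 in N1c against control (354 against 565, adjusted p = 0.0177) and rose by 0.95 ± 0.16 in N1c_RBPJdel against N1c (681 against 354, adjusted p = 0.00123). It thus moved opposite to Fasl in both comparisons. The fall was lost without N1c array 5, without control array 2 or 3 and when these groups were fitted alone, with adjusted p of 0.0711 to 0.0841. Cflar, an inhibitor of caspase-8 activation, fell in N1c_RBPJdel against control (-0.64, adjusted p = 0.036, 18 of 26 alternatives). That call was lost without N1c_RBPJdel array 1 or 2 and without control array 2, 3 or 4. It was also lost with quantile normalization (-0.51, adjusted p = 0.0874, limma) and cyclic loess (-0.48, adjusted p = 0.0995). Fas, the receptor of Fas ligand, was called in none of the comparisons.

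Of 12 transcription factors known from cytotoxic lymphocytes 2 rose and 1 fell in N1c against control. Id2 rose by 0.79 ± 0.13 (1417.5 against 822, adjusted p = 0.0029), Runx3 by 0.75 ± 0.17 (927 against 553, adjusted p = 0.0324), and Bach2, a repressor that holds back effector genes, fell by 0.58 ± 0.12 (752 against 1120.6, adjusted p = 0.0155). The Id2 rise was called in all 26 alternatives. The Runx3 rise was lost without N1c array 1, 4 or 5 and without control array 2, 3 or 4, with adjusted p of 0.0583 to 0.126. The Bach2 fall was lost without N1c array 5 and without control array 2, 3 or 4. In N1c_RBPJdel against N1c 0 rose and 2 fell, Bhlhe40 (-1.01, adjusted p = 0.0135) and Ikzf3 (-0.47, adjusted p = 0.0273). The Bhlhe40 call was kept in 23 of 26 alternatives and the Ikzf3 call in 17 of 26. The Bhlhe40 call was lost without N1c_RBPJdel array 3, and the Ikzf3 call without N1c_RBPJdel array 1 or 3 and without N1c array 1 or 2. Both were also lost in the fits of these groups alone, with and without the replicate block. The Ikzf3 call was lost too with quantile normalization (adjusted p = 0.118) and cyclic loess (adjusted p = 0.114). In N1c_RBPJdel against control 3 rose and 2 fell. Tbx21, which encodes T-bet, rose by 0.90 ± 0.19 (328 against 175, adjusted p = 0.0106), Id2 by 0.73 (adjusted p = 0.00812) and Prdm1, which encodes Blimp-1, by 0.52 (adjusted p = 0.0154). Bach2 fell by 0.96 (adjusted p = 0.00116) and Ikzf3 by 0.59 (adjusted p = 0.0111). Leaving out control array 3 ended the Prdm1 call (adjusted p = 0.0524), and leaving out N1c_RBPJdel array 1 ended that of Ikzf3 (adjusted p = 0.0631). Fitting these groups alone ended the calls of Tbx21 (adjusted p = 0.0511), Prdm1 (adjusted p = 0.052) and Ikzf3 (adjusted p = 0.0517). Bach2 was also lower in N1c_RBPJdel than in RBPJdel cells (-0.74, adjusted p = 0.0119). That call was lost without N1c_RBPJdel array 1 (adjusted p = 0.0597) and when these groups were fitted alone (adjusted p = 0.0516). In RBPJdel against control 0 genes of the 5 lists were called in either direction.

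**Figure D4:**
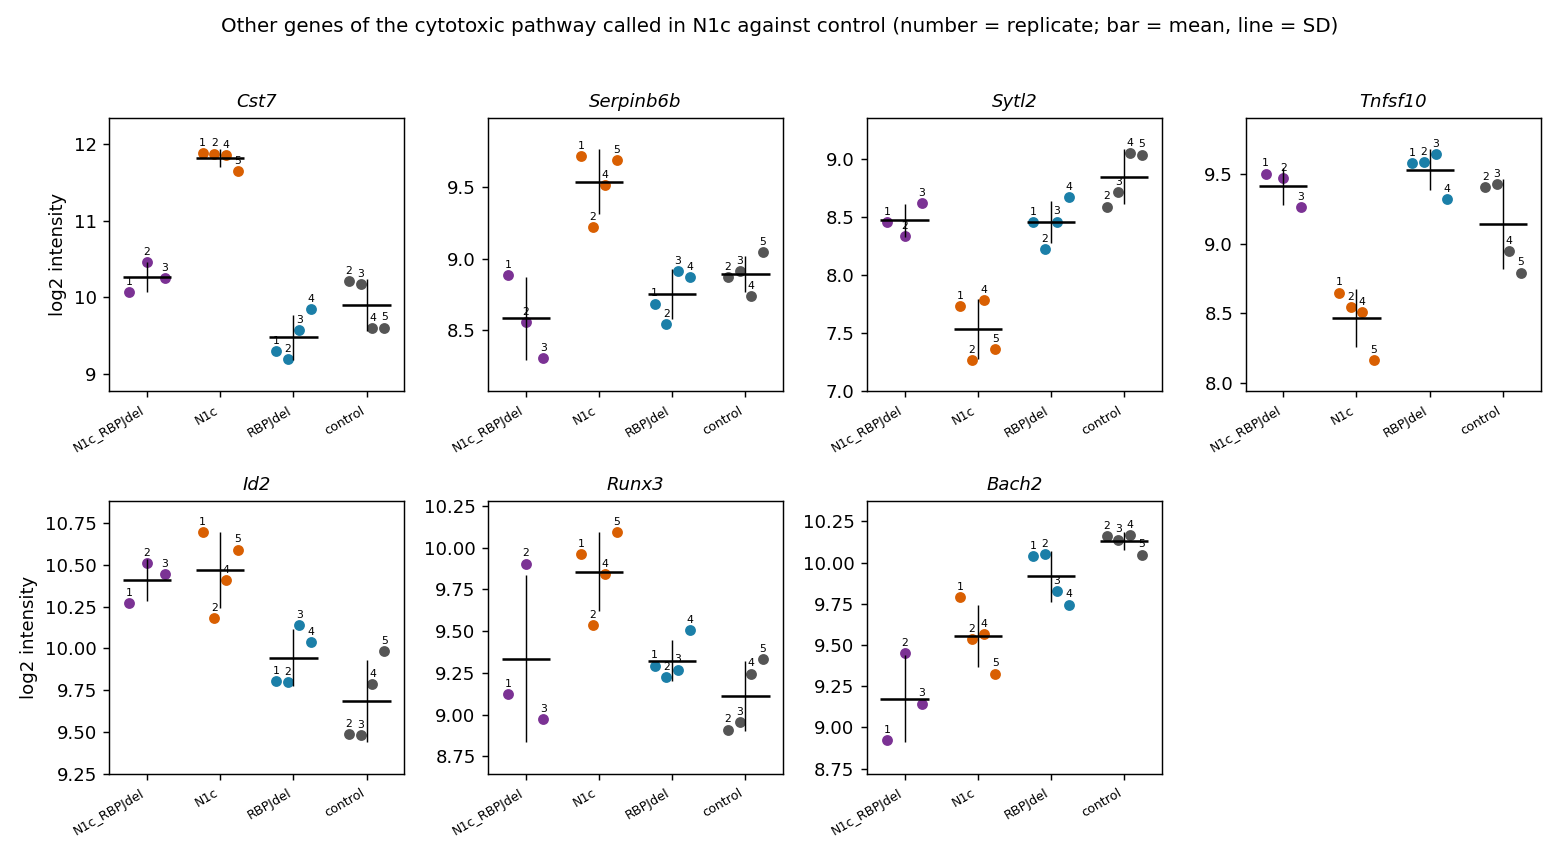
Each panel gives 1 of the 7 listed genes that were called in N1c against control, with log2 intensity on the vertical axis and the 4 groups on the horizontal axis. Points are arrays numbered by replicate, the horizontal bar is the group mean and the vertical line the SD. Cst7 of the 4 N1c arrays lies above all other arrays, and Sytl2 and Tnfsf10 of the N1c arrays lie below them.

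Granule genes are also expressed by NK and CD8 T cells, which were gated out, so their markers were read on the same arrays. In bulk RNA, more cells of a type and more RNA per cell cannot be told apart. Of 11 NK cell markers 0 were called in N1c against control, with summed intensities of 474 to 624 in N1c arrays and 469 to 613 in control arrays. Of these, 7 (Ncr1, Klrb1c, Klrd1, Klrk1, Klre1, Klrc1 and Klrc2) had mean intensities below the 10th percentile of all genes. The other four were brighter, with Cd244a at percentile 33.7, Fcer1g at 35.4, Tyrobp at 43.6 and Itga2 at 66. In N1c_RBPJdel arrays the NK sum was 672 to 804. Of the 11 markers, 5 were called higher than in N1c cells (4.58% of all genes) and 1 higher than in RBPJdel cells (1.32%). Against control 3 were called higher, Fcer1g, Klrk1 and Itga2 (3.77%). The sum of RBPJdel arrays was 591 to 691. Itga2, the brightest of the 11, had 291 in N1c_RBPJdel, 169 in N1c, 284 in RBPJdel and 188 in control cells. In N1c_RBPJdel arrays 1, 2 and 3 it had 310, 344 and 231. Of 6 CD8 T cell markers 1 was called, Cd160, with 104 in N1c_RBPJdel, 287 in N1c, 88.7 in RBPJdel and 118 in control cells. It rose by 1.28 ± 0.15 in N1c against control (adjusted p = 5.04e-05, limma) and fell by 1.46 ± 0.16 in N1c_RBPJdel against N1c (adjusted p = 2.06e-05), while Cd8a and Cd8b1 were not called. Cd8a and Cd8b1 were not dim, with mean intensities at percentiles 51.8 and 83.8 of all genes. Cd8b1 had 553 in N1c_RBPJdel, 444 in N1c, 584 in RBPJdel and 513 in control cells.

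Some markers of other cells were also higher in N1c_RBPJdel arrays. The erythroid sum was 1377.9, 853 and 590 in N1c_RBPJdel arrays 1, 2 and 3, against 426 to 513 in N1c arrays, 456 to 502 in RBPJdel arrays and 443 to 468 in control arrays. Most of that difference came from 1 gene, Car1, with 852, 400 and 137 in N1c_RBPJdel arrays 1, 2 and 3 and geometric means of 59.4 in N1c, 62.3 in RBPJdel and 60.2 in control cells. Of the 7 erythroid markers 2 were called higher in N1c_RBPJdel than in control cells (3.77% of all genes), Car1 and Rhag. The B cell sum was 727 to 1028.2 in N1c_RBPJdel, 590 to 638 in N1c, 718 to 844 in RBPJdel and 636 to 707 in control arrays. Of its 8 markers 4 were called higher in N1c_RBPJdel than in N1c cells (4.58% of all genes). The neutrophil sum was 528 to 622 in N1c_RBPJdel, 384 to 502 in N1c, 420 to 484 in RBPJdel and 397 to 447 in control arrays, with S100a9 and Ngp called. Of 8 markers of myeloid cells 1 was called in N1c_RBPJdel against N1c, Lyz2, and of 7 mast cell and basophil and 6 platelet markers 0 were called in any comparison. None of the marker lists but that of CD8 T cells had a call in N1c against control. N1c_RBPJdel array 3 had the lowest erythroid, NK, B cell and neutrophil sums of its group. The same array had the group's highest mast cell and basophil sum (268) and platelet sum (602). Taken alone it differed from the N1c mean by -1.97 for Gzmb, -1.27 for Fasl and 1.33 for Ctsw, and from the control mean by 0.92 for Gzmk and 0.72 for Nkg7. These are values of 1 array, with no spread of their own. The part of these cells in the Gzmk and Nkg7 differences of N1c_RBPJdel from control was not tested.

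**Figure D5:**
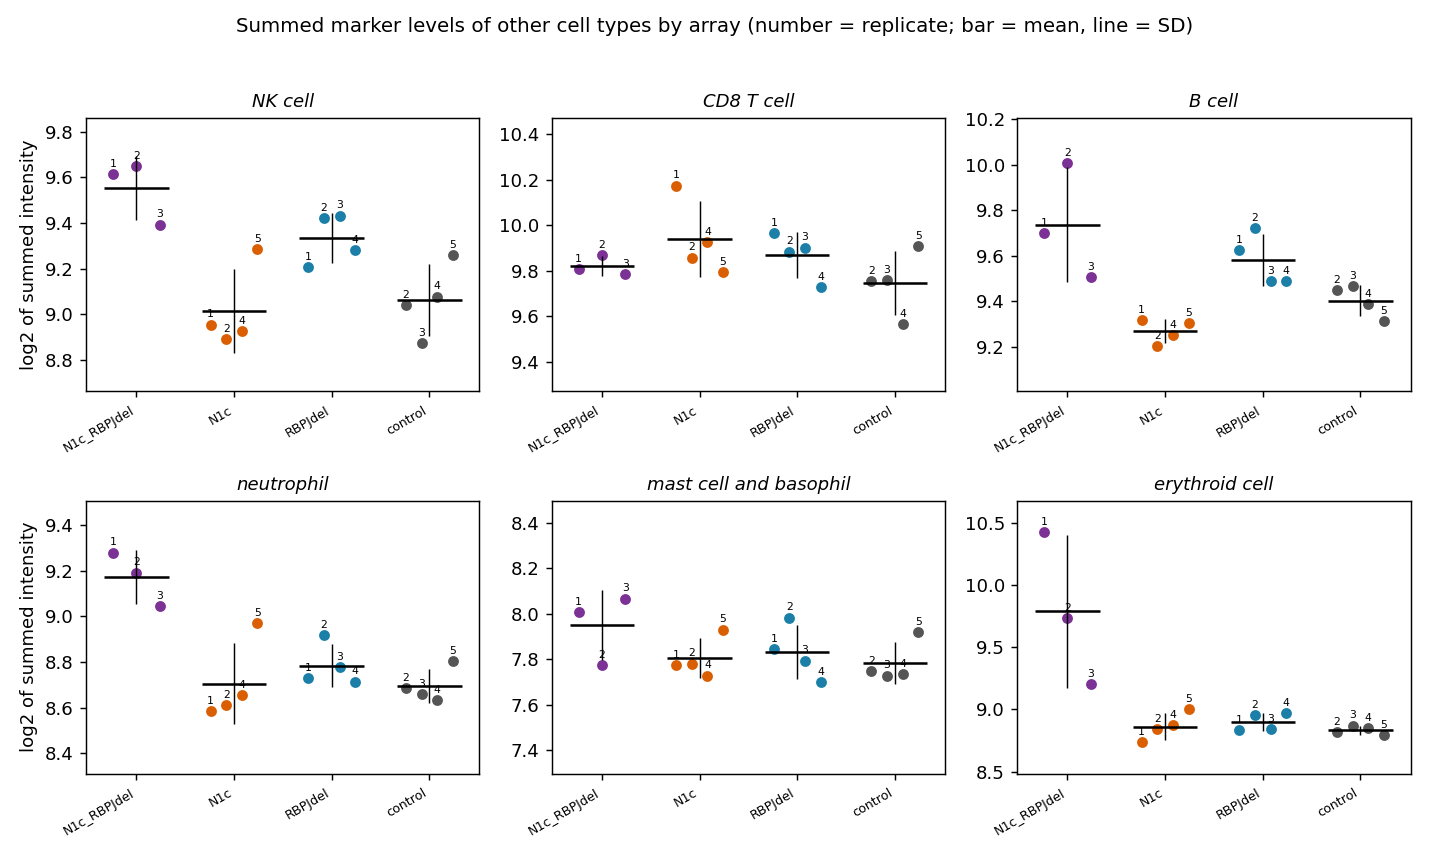
Each panel gives the summed intensity of 1 marker list on a log2 axis for every array, by group. Points are arrays numbered by replicate, the horizontal bar is the group mean and the vertical line the SD. The erythroid sums of the 3 N1c_RBPJdel arrays lie above all other arrays, and the NK sums of N1c arrays overlap those of control arrays.

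For each member whose group means spanned at least 1 on the log2 scale, the 3 genes with the most similar values over the 15 arrays were found by the root mean square (RMS) difference of their mean-centred log2 values. The arrays share their labelling and normalization, and no test was made. Nearest to Gzmb were Hey1 (RMS 0.35), Rflnb (0.37) and Tubb2a (0.42), where the SD of Gzmb itself was 1.01. Fasl was followed by Kcnj16 (0.23), Dsp (0.25) and Tm6sf1 (0.26), with an SD of 0.73. Ctsw was followed by Nrp1 (0.28), which encodes the Treg surface protein neuropilin 1, Klf12 (0.32) and Flicr (0.34), with an SD of 0.75. Nrp1 had 1348.1 in N1c_RBPJdel, 461 in N1c, 1541.2 in RBPJdel and 1357.9 in control cells. Nkg7 had less close neighbours relative to its SD of 0.61, namely Slc43a1 (0.33), Cks1b (0.37) and Ccr4 (0.37). Hey1, a direct Notch target in other cells, had 129 in N1c_RBPJdel, 461 in N1c, 92.8 in RBPJdel and 95.2 in control cells.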

How the data were processed

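RNA of sorted splenic Treg was measured on 15 arrays. The deposited values are linear array intensities per transcript cluster. Per the submitters' processing notes, the authors used Affymetrix Power Tools and its RMA. For these, version numbers, annotation release and genome build were not given in the sources used here. There were 24922 features, with intensities of 5.61 to 18029.7. Of these, 21425 named 1 gene in the platform annotation, 1399 named several and 2098 none, and 21347 of those with 1 gene matched the RefSeq table (GRCm38.p6). For 921 genes with several features the brightest was kept, which left 19752 genes with no filter on dim genes. The correlation between arrays was 0.974 to 0.997.

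Values were converted to log2 and fitted by limma 3.58.1 (R 4.3.3), with a mean for each group and all 15 arrays together. There were 11 residual degrees of freedom, to which the variance prior added 6.15. Two-sided p-values were adjusted by Benjamini-Hochberg within each of 6 comparisons with a threshold of 0.05. They reflect the spread among the arrays of a group, each a pool of mice, whose number limits the precision. Without a replicate block, that spread includes any part that goes with the replicate number. The fits were tested on simulated data.

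The members, gene lists and marker lists were chosen with earlier results of these data known. Named are the 8 members, Rbpj, Notch1 and Foxp3, up to 4 called genes per pathway list and comparison by smallest p, and 3 genes most like each member that spans 1 on the log2 scale. Ctsc, Serpinb9, Fas, Cd8a and Cd8b1 were named after their values were seen. Some genes of the pathway and marker lists were not analysed here.

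Arrays of different groups share replicate numbers. Residuals of N1c and control arrays with the same number had r of 0.417, 0.341 and 0.497, all above 0.1, so the numbers pair these groups, and no other pair of groups met that rule. Arrays numbered 4 were also alike in N1c and RBPJdel (r = 0.457) and in RBPJdel and control (r = 0.417). Those pairs of groups missed the rule through lower values, 0.0815 and 0.0711. Whether arrays of the same number share a batch was not tested. Alternatives were quantile normalization, cyclic loess, brighter genes, other features per gene, the groups of a comparison alone, array weights, a trended robust prior, the replicate block and leaving out each array. N1c_RBPJdel array 3 alone for its group was added after seeing the data.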

Additional observations from a re-analysis of the deposited data

Results flagged for a closer look

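Each member was examined for an array far from the rest of its group in the 3 groups of 4 arrays, 24 cases in all, and chance flags about 1 in 20. Gzma of N1c array 2, at 33.3 against 57.8 to 64 in the other 3 arrays, left a gap of 0.844 of the group's log2 range. Gzmk of RBPJdel array 2, at 82.3 against 61.1 to 63.7, left a gap of 0.858. The N1c change differed between cells with and without RBPJ for Ctsw, by 1.09 on the log2 scale, and for Fasl, by -1.25, each by the interaction test.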

How the results depend on the processing

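Over all alternatives 2785 single-gene values and list counts were recomputed. Of these, 2509 kept their side of the threshold or lay close to the reported count, 144 lost a call, 22 gained one and 110 moved. A reversal was counted only where the reported or the alternative fit made a call, and there were 0. Changes of sign without a call were counted as kept, as for Nkg7 in N1c_RBPJdel against N1c (-0.12, alternatives -0.47 to 0.11). In N1c against control the 6 member calls became 3 when these groups were fitted alone. In RBPJdel against control the 0 calls became 1 with array weights. In N1c_RBPJdel against N1c the 4 calls became 2 with the replicate block in these groups alone. In N1c_RBPJdel against RBPJdel the 0 calls became 1 with quantile normalization, cyclic loess, array weights or the block in these groups alone, 2 with the block over all arrays, and 0 to 1 when 1 array was left out. In N1c_RBPJdel against control the 2 calls became 1 with the brighter genes (which drops Gzma and Gzmk), the groups alone, array weights, the trended robust prior or N1c_RBPJdel array 3 alone, and 0 to 3 when 1 array was left out, with 3 (Ctsw gained) without N1c_RBPJdel array 3. The 2 interaction calls became 0 with N1c_RBPJdel array 3 alone and 1 to 2 when 1 array was left out. With array 3 alone its group has 1 array, which is assumed to vary like the other groups, so those counts are no test of stability. Among the causes, only the smaller tables and groups are given by construction, and the others were not tested.

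Over all genes the calls in N1c against control numbered 326, from 217 without control array 4 to 733 with array weights, and 494 with the pairing as a block over all arrays. They numbered 22 (17 to 189) for RBPJdel against control. For N1c_RBPJdel against N1c they numbered 1823 (368 to 3699), against RBPJdel 452 (76 to 2107), against control 1757 (406 to 3767), and for the interaction 166 (101 to 632). With the block over all arrays, the pairing changed only the N1c against control call of Gzmk among the members (gained). When these groups were fitted alone without the block, Gzma, Prf1 and Nkg7 were not called (adjusted p = 0.058, 0.0675 and 0.0777). With the block in these groups alone, Gzma (0.79, adjusted p = 0.02), Nkg7 and Gzmk were called and Prf1 was not (adjusted p = 0.0713). The replicate block also called Gzma in N1c_RBPJdel against control over all arrays (0.45, adjusted p = 0.0401) and, against RBPJdel, Gzmb (0.99, adjusted p = 0.014) and Gzmk (0.52, adjusted p = 0.022), although the numbers do not pair these groups.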
